A study of Mus musculus with 12 samples.

Results

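The surface marker genes by which LSK cells are sorted, and by which stem cells are parted from multipotent progenitors within them, were described in bone marrow of WT and Fancg KO mice. LSK cells lack the markers of mature lineages and carry both Sca-1 and KIT, and they hold hematopoietic stem cells (HSCs) and multipotent progenitors (MPPs). The members were taken by gene name as Kit, Ly6a, Cd34, Flt3, Procr, Slamf1, Cd48, Cd27 and Tek, and all 9 were found among the 35999 genes of the table. RNA-seq covered 12 libraries of LSK cells, 6 labelled WT and 6 labelled Fancg KO, from 6 mice each by the paper's account. KO stands for a germline Fancg-/- genotype, which removes a protein of the Fanconi anemia core complex, and no treatment is named for either group. The ages of the mice were not given in the sources used here. Mature cells of the marrow were depleted, and the rest was sorted with antibodies to CD117, to Sca-1 and to a lineage panel. The members therefore include the genes of the antigens in the gate itself, Kit (CD117) and Ly6a (Sca-1), which limits how far these could differ at the protein level.

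Sorting rests on proteins at the cell surface. KIT is the receptor tyrosine kinase for stem cell factor, and Sca-1 is a small GPI-anchored protein of the Ly6 family. Within LSK cells, mouse HSCs are known to carry CD150 (Slamf1), the endothelial protein C receptor (Procr) and the angiopoietin receptor TIE2 (Tek), while MPPs gain FLT3, CD48 and CD27. CD34, a sialomucin, is low on adult mouse HSCs and high on most MPPs. A shift between these cell types inside the gate would change several of these transcripts at once, and in bulk RNA fewer cells of a type cannot be told apart from less RNA per cell.

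Values are called signal here, meaning an estimated read count per gene that the authors divided by a factor for the size of the library. Differences are given as log2 fold changes of log2(signal + 1), KO minus WT, which understates the change of low genes. Low values of a library piled up on a step taken as what 1 read is worth. By this step, an approximation, the libraries held between about 1235110 and about 2471413 reads. The shallowest was KO replicate 7. The 15 genes with the highest mean signal took 49.0% to 57.1% of the total signal of a library, so fewer reads were left for the other genes. Fancg itself, on chromosome 4 from 43002343 to 43010506, ran from 4.76 to 24.1 in WT and from 4.46 to 14.5 in KO (log2 fold change -0.20, exact permutation p = 0.636), so its level does not separate the labels and "KO" below names the label. WT replicate 3 and KO replicate 7 stood apart by a low sum of 4 Y-linked genes, 26.6 and 49.7 against 189 to 435 in the others, and results that rest on them are also given without them.

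Markers of the cells that the gate should remove ranged widely in signal, and some were at 0 in every library. Of 8 T cell genes, Cd8b1 and Trac were listed at 0 in every library, and the sum of the list was 5.15 to 26.0 in WT and 4.37 to 18.1 in KO. Ly6g and Cd177 of the 10 granulocyte and monocyte genes were at 0 throughout (sum 20.2 to 40.3 in WT and 8.71 to 47.3 in KO), and Slc4a1 of the 8 erythroid genes was at 0 (sum 3.797 to 21.3 and 3.53 to 29.6). The B cell list summed to 38.2 to 202 and 55.3 to 299, mostly from Ebf1, with means of 117 and 132. These signals are not divided by transcript length, so they do not rank such genes against the members. The natural killer list summed to 30.7 to 57.3 and 29.5 to 81.1, mostly from Nkg7, with Ncr1 at 0. Mast cell and basophil genes summed to 27.2 to 76.6 and 26.5 to 63.9, stromal genes to 67.9 to 106 and 62.0 to 88.2, and endothelial genes without Pecam1 to 33.7 to 56.3 and 23.0 to 190.2. Pecam1 alone was listed at 17812 to 76164 per library, among the highest signals of the table, and was left out of that sum. Kit, Cd34 and Flt3 were present in every library, whereas Ly6a, the transcript of the second gate antigen, was low.

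Ly6a occupies chromosome 15 from 74994877 to 74998031, minus strand (ENSMUSG00000075602.10, GRCm38). Of the 31-base stretches in its annotated transcripts, 31.9% also occur in transcripts of other genes, and 21.9% occur in Ly6c1, a neighbour in the Ly6 family. Ly6c1 itself had a mean signal of 0.490 over the 12 libraries, with a highest value of 2.21 in WT and 2.40 in KO. The effect of the shared stretches on the signal of Ly6a was not tested. The longest run that the coding sequences of Ly6a and Ly6c1 have in common, in capitals, is shown because a read wholly within it fits both genes alike. It covers 48 bases, positions 337 to 384 of the 402 coding bases of Ly6a-201 and 328 to 375 of the 393 coding bases of Ly6c1-201, counted from the A of the start codon and without the stop codon. The sequences are those of GENCODE M21 transcripts, 5′ to 3′, with 20 bases before the run and 18 after it.
Ly6a: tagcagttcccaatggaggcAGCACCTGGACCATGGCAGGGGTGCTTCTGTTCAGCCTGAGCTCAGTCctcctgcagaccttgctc
Ly6c1: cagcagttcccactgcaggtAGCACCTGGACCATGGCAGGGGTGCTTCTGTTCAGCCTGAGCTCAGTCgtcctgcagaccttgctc
After the run the printed sequences differ at the next base and are then alike again, while the bases before it differ at several places, so only reads that reach an unlike base can part the genes. Of the other members, Kit, Procr, Cd48 and Tek shared no 31-base stretch with another gene, and Flt3, Slamf1, Cd27 and Cd34 shared between 0.866% and 4.97%.

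Slamf1 and Cd48 are members of the same receptor family and neighbours on chromosome 1, on the plus strand, Cd48 from 171682009 to 171705258 and Slamf1 from 171767127 to 171801184, with 61.9 kb between them. Flt3 is found on chromosome 5 from 147330741 to 147400489 (minus strand), and Kit on the same chromosome from 75574916 to 75656722 on the plus strand. The 250 bases before the RefSeq start of Flt3, Slamf1 and Cd48 (GRCm38.p6) are shown because these genes part HSCs from MPPs and Flt3 and Slamf1 had the largest differences of the members. Sequences were found for 8 of the 9 members, and Ly6a was not among them. Capitals mark a match on either strand to the letters of 3 motifs, TGTGGT for RUNX factors, AGATAA for GATA factors and GAGGAA for PU.1.
Flt3, chr5:147400490-147400739, minus strand: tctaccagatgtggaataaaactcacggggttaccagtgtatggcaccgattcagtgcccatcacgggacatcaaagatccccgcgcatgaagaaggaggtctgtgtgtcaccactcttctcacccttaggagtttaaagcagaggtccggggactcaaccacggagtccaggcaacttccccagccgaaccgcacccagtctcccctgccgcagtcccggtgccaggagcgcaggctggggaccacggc
Slamf1, chr1:171766882-171767131, plus strand: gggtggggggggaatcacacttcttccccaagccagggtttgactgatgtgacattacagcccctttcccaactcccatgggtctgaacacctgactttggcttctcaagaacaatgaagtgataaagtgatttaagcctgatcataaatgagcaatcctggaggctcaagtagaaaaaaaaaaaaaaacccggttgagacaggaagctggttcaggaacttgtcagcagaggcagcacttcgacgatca
Cd48, chr1:171681742-171681991, plus strand: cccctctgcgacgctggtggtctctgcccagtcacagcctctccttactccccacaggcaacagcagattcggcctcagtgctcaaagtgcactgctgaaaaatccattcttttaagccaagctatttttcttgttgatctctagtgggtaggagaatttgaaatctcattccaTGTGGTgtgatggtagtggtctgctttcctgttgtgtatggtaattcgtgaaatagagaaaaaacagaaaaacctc
Cd48 held TGTGGT between 76 and 71 bases before its start, and Flt3 and Slamf1 held none of the 3 motifs in this window. Among the other members Kit held GAGGAA, and Cd34, Procr, Cd27 and Tek held none. Of 32851 such windows of the genome, 14.0% held TGTGGT, 9.99% held AGATAA and 23.3% held GAGGAA.

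The sort receptor gene Kit had near-equal signal in both groups. In WT replicates 2 to 7 its signal was 307, 357, 337, 319.7, 302 and 392, and in KO replicates 2 to 7 it was 435, 362, 314, 299, 283 and 411. The groups overlapped, with 2 KO libraries above and 2 below the whole WT range. The means were 336 ± 34.1 (SD, n = 6) in WT and 351 ± 62.5 (SD, n = 6) in KO, and the log2 fold change was 0.05 (95% interval -0.25 to 0.35, exact permutation p = 0.680, adjusted p = 0.9996). The interval spans a 0.843-fold to 1.27-fold level in KO.

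Ly6a, the Sca-1 gene, was measured on few reads. Its signal was 8.997, 6.15, 17.2, 17.4, 6.70 and 12.7 in WT replicates 2 to 7 and 13.8, 16.1, 11.8, 8.90, 4.84 and 5.14 in KO replicates 2 to 7. The libraries of both groups were spread over nearly the same range, with KO replicates 6 and 7 the lowest of all. In 11 of 12 libraries the value was a whole multiple of 1.07 steps of the library, within 0.01, and the multiples ran from 3 to 24. The log2 fold change was -0.19 (95% interval -0.95 to 0.58, exact permutation p = 0.606, adjusted p = 0.9996). The interval spans a 0.517-fold to 1.49-fold level in KO, far wider than that of Kit. Leaving out 1 library moved the log2 fold change between -0.34 (without KO replicate 3) and -0.027 (without KO replicate 6), and it was -0.041 without KO replicate 7, -0.058 without WT replicate 5 and -0.060 without WT replicate 4. Ly6e, a broadly expressed relative, had a signal of 231 ± 55.1 (SD, n = 6) in WT and 229 ± 31.7 (SD, n = 6) in KO.

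**Figure D1:**
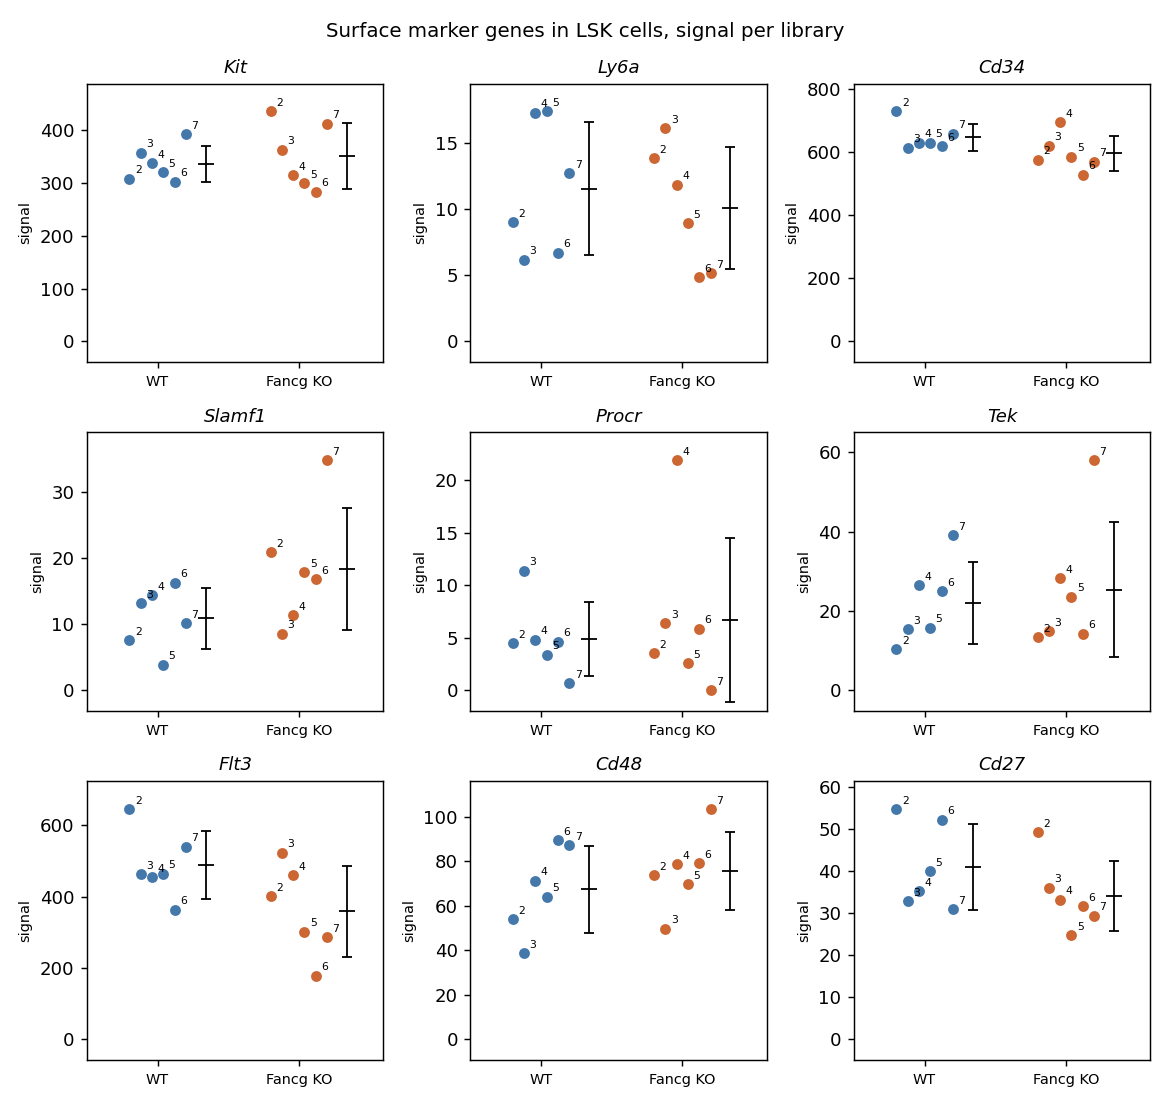
Signal of the 9 marker genes in each library (points, with the replicate number beside each), WT on the left and Fancg KO on the right of each panel. Bars are the mean and SD of 6 libraries and each vertical axis has its own scale. Flt3 shows 3 KO libraries, from 178 to 301, below the lowest WT library at 363, while Slamf1 shows 4 KO libraries, from 16.8 to 34.8, above the highest WT library at 16.2, and the groups overlap in every panel.

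Among the genes of the MPP side, Flt3 had the largest difference. FLT3 is the receptor tyrosine kinase for FLT3 ligand, gained as HSCs become lymphoid-primed MPPs. Its signal was 646, 464, 454, 464, 363 and 539.9 in WT replicates 2 to 7 and 402, 523, 460.0, 301, 178 and 286 in KO replicates 2 to 7. KO replicates 5, 6 and 7 were below every WT library, WT replicates 2 and 7 were above every KO library, and KO replicates 3 and 4 lay inside the WT range. The mean was 489 ± 95.5 (SD, n = 6) in WT and 358 ± 127 (SD, n = 6) in KO, a log2 fold change of -0.51 (95% interval -0.997 to -0.02), or a 0.703-fold level. The unadjusted limma p was 0.0423, rank 267 of 8887 genes, the adjusted p was 0.9996 and the exact permutation p was 0.0628, so the difference did not pass the test across all genes. Leaving out KO replicate 6 brought the log2 fold change to -0.32, and without WT replicate 3 and KO replicate 7 it was -0.47, both with an unadjusted limma p above 0.05. The same p also passed 0.05 when any 1 of WT replicates 2, 3, 4, 5 and 7 or KO replicates 5 and 7 was left out. The lowest Flt3 of each group was in the library numbered 6, and KO replicates 6 and 7 were also the shallowest of their group.

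Cd34 was the steadiest of the members. Its signal was 728, 613, 628, 628, 618 and 657 in WT replicates 2 to 7 and 575, 619.7, 693, 585, 528 and 568.1 in KO replicates 2 to 7. In KO, 4 of 6 libraries lay below the lowest WT library, and 1 WT library lay above the highest KO library. The coefficient of variation was 6.69% in WT and 9.50% in KO. The log2 fold change was -0.12 (95% interval -0.37 to 0.13, exact permutation p = 0.104, adjusted p = 0.9996), and the interval leaves room for a 0.773-fold to 1.09-fold level in KO.

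Cd27 encodes a receptor of the TNF receptor superfamily and lies on chromosome 6 from 125232622 to 125237010. Its signal was 54.8, 32.8, 35.3, 40.0, 52.2 and 30.9 in WT replicates 2 to 7 and 49.3, 36.0, 33.1, 24.7, 31.6 and 29.3 in KO replicates 2 to 7. The groups overlapped, and 1 KO library was above the WT median. The log2 fold change was -0.26 (95% interval -0.68 to 0.16, exact permutation p = 0.193, adjusted p = 0.9996).

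Cd48, whose product is a GPI-anchored ligand of CD244 and CD2, had a slightly higher mean in KO. Its signal was 53.8, 38.6, 71.2, 64.0, 89.4 and 87.2 in WT replicates 2 to 7 and 73.5, 49.6, 78.5, 69.5, 78.9 and 103 in KO replicates 2 to 7. The lowest library of either group was replicate 3, and 5 of 6 KO libraries were above the WT median. The log2 fold change was 0.19 (95% interval -0.27 to 0.64, exact permutation p = 0.444, adjusted p = 0.9996). Without WT replicate 3 and KO replicate 7, which held the lowest WT and the highest KO value, it was -0.06. In that same fit Flt3 was at -0.47 and Cd27 at -0.28, so whether Cd48 lay on the same side as these genes depended on those libraries.

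Of the genes of the HSC side, Slamf1 had the largest log2 fold change of all members, on low signal. SLAMF1 (CD150) is the SLAM family receptor most used to mark HSCs. Its signal was 7.53, 13.2, 14.3, 3.88, 16.2 and 10.1 in WT replicates 2 to 7 and 20.9, 8.54, 11.3, 17.8, 16.8 and 34.8 in KO replicates 2 to 7. KO replicates 2, 5, 6 and 7 were above every WT library, and KO replicates 3 and 4 lay within the WT range. KO replicate 6 (16.8) passed the highest WT library, WT replicate 6 (16.2), by less than the approximate worth of 1 read in them (1.13 and 1.25). The mean was 10.9 ± 4.62 (SD, n = 6) in WT and 18.3 ± 9.20 (SD, n = 6) in KO, a log2 fold change of 0.69 (95% interval -0.07 to 1.46), or a 1.62-fold level. The limma p was 0.0737, the adjusted p 0.9996 and the exact permutation p 0.106. By the step of each library the values stand for about 5.72 to 21.7 reads, an approximate number since the worth of 1 read can differ between genes, as for Ly6a, and the counting error is wide. Without WT replicate 5, the lowest library, the log2 fold change was 0.46, and without WT replicate 3 and KO replicate 7 it was 0.56.

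Tek and Procr also had log2 fold changes above 0, but small ones that turned when single libraries were left out. The signal of Tek, on chromosome 4 from 94739289 to 94874976, was 10.4, 15.4, 26.6, 15.8, 25.0 and 39.1 in WT replicates 2 to 7 and 13.4, 14.9, 28.3, 23.6, 14.3 and 58.1 in KO replicates 2 to 7. Replicate 7 was the highest of each group. The log2 fold change was 0.12 (95% interval -0.66 to 0.90, exact permutation p = 0.790, adjusted p = 0.9996), and without KO replicate 7 it was -0.15. Without WT replicate 2, the lowest library, it was -0.06, and without both WT replicate 3 and KO replicate 7 it was -0.22.

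Procr, on chromosome 2 from 155751117 to 155755471, was the lowest member by signal and did not reach the mean of 10 asked for in the fit. Its signal was 4.49, 11.4, 4.83, 3.37, 4.64 and 0.672 in WT replicates 2 to 7 and 3.55, 6.39, 21.9, 2.59, 5.84 and 0 in KO replicates 2 to 7. Replicate 7 was the lowest of each group, where Tek was the highest. The log2 fold change was 0.04 (exact permutation p = 0.965), and it was -0.39 without KO replicate 4 and 0.77 without WT replicate 3 and KO replicate 7, so no direction can be given.

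**Figure D2:**
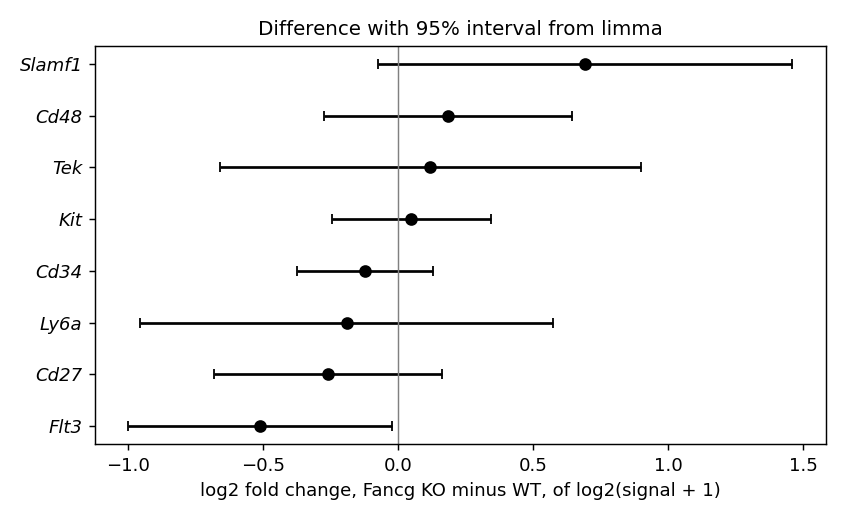
Log2 fold change of log2(signal + 1), Fancg KO minus WT, for the 8 members in the fit (points) with the 95% interval from limma (bars), ordered by size. The interval of Flt3, -0.997 to -0.02, is the only 1 that leaves out 0, and Kit and Cd34 have the narrowest intervals.

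Over all members, 8 of 9 entered the fit, and 4 of these were higher and 4 lower in KO, with a median log2 fold change of -0.04 against 0.0031 over the 8887 genes tested. Flt3 alone had an unadjusted p under 0.05. Among all genes tested 3.67% had such a p in either direction and 1.69% had it with a lower level in KO, which is the background for this count. After Benjamini-Hochberg adjustment 0 members and 0% of all genes passed in limma, while 326 genes had an unadjusted p under 0.05. The groups did not overlap for 0 of the 9 members, against 0.09% of the genes tested.

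The members covered a wide range of levels per length. Per kb of transcript, taken as the median over the coding transcripts of a gene, Cd34 had the highest level over the 12 libraries at 248 ± 21.9 (SD, n = 12), followed by Flt3 at 116 ± 34.7. Cd34 was above Flt3 in 12 of 12 libraries, without overlap of the ranges. Cd48 (67.8 ± 17.2) and Kit (65.7 ± 9.30) could not be ordered, Cd48 being the higher in 7 of 12 libraries. Cd27 followed at 45.1 ± 11.6, below Kit in 10 of 12 libraries, although with the length of its longest transcript its level was 24.1. Ly6a, at 12.6 ± 5.43, was below Cd27 in 12 of 12 libraries. The HSC-side genes came last, with Procr at 5.53 ± 5.57, Slamf1 at 5.43 ± 2.96 and Tek at 5.22 ± 2.99, and their order did not hold beyond the spread, since Procr was above Slamf1 in 5 and Slamf1 above Tek in 7 of 12 libraries.

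**Figure D3:**
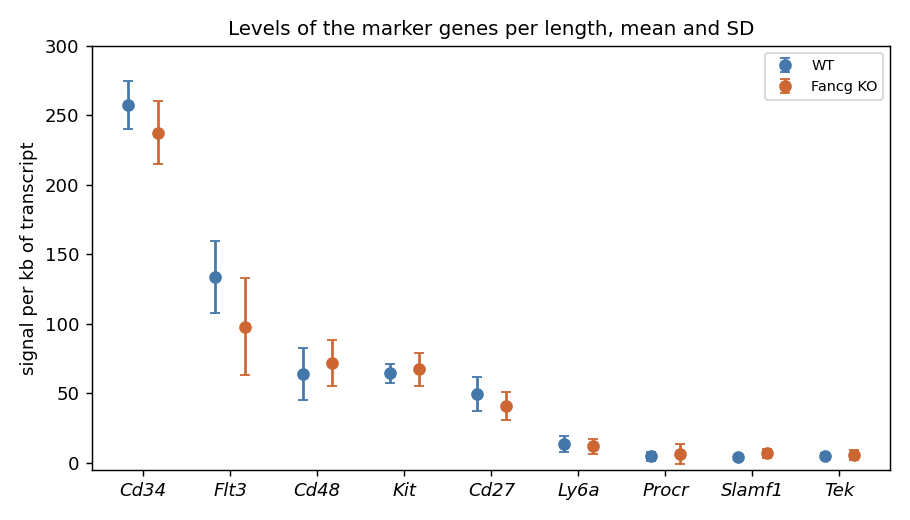
Signal per kb of transcript for the 9 members, ordered by their mean over all libraries. Points are means and bars are SDs of 6 WT (blue) and 6 Fancg KO (orange) libraries. The MPP-side gene Flt3 sits at 134 in WT and 98.0 in KO, and the HSC-side genes Procr, Slamf1 and Tek all sit under 7 in both groups.

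Markers were also set against each other within a library, as log2 ratios of signal + 1, where the added 1 weighs on low genes (with 5 added, the difference of Slamf1 to Cd48 given below is 0.35). The log2 ratio of Slamf1 to Flt3 was -6.25, -5.04, -4.89, -6.58, -4.40 and -5.61 in WT replicates 2 to 7 and -4.20, -5.78, -5.23, -4.01, -3.33 and -3.01 in KO replicates 2 to 7. It was above the whole WT range in KO replicates 2, 5, 6 and 7, and its mean was -5.46 ± 0.84 (SD, n = 6) in WT and -4.26 ± 1.07 (SD, n = 6) in KO, a difference of 1.201. Without WT replicate 3 and KO replicate 7 the difference was 1.04, with 3 of 5 KO libraries above the WT range, and without KO replicate 7 alone it was 0.95. Since this ratio joins the 2 members with the largest differences, it carries no test of its own. The ratio of Slamf1 to Cd48 differed by 0.51, with 0 KO libraries above the WT range. WT replicate 3 alone set the top of that range, and without it 4 of 6 KO libraries were above and the difference was 0.73. Without it and KO replicate 7, 3 of 5 KO libraries were above and the difference was 0.62. Without WT replicate 5 the difference was 0.28. The ratio of Procr to Cd48 differed by -0.15, which became 0.26 without WT replicate 3, 0.42 without KO replicate 7 and 0.82 without both.
The mean log2 level of Slamf1, Procr and Tek minus that of Cd48, Flt3 and Cd27 was -3.37 ± 0.56 (SD, n = 6) in WT and -2.90 ± 0.36 (SD, n = 6) in KO. The WT libraries ran from -3.95 to -2.59 and the KO libraries from -3.35 to -2.41, so that 1 KO library was above the WT range and 6 of 6 were above the WT median. The highest WT value was again that of WT replicate 3. Without it 4 of 6 KO libraries were above the WT range, and without it and KO replicate 7 it was 3 of 5, with a difference of 0.64 in place of 0.48. Leaving out 1 library moved the difference between 0.36 (without WT replicate 2) and 0.63 (without WT replicate 3). It was 0.37 without WT replicate 5 and 0.38 without KO replicate 4. Each of these values is a description. The score also holds Slamf1 and Flt3, the 2 members with the largest differences. Procr (log2 fold change 0.04), Tek (0.12) and Cd27 (-0.26) added less to the difference, and Cd48 (0.19) lowered it.

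**Figure D4:**
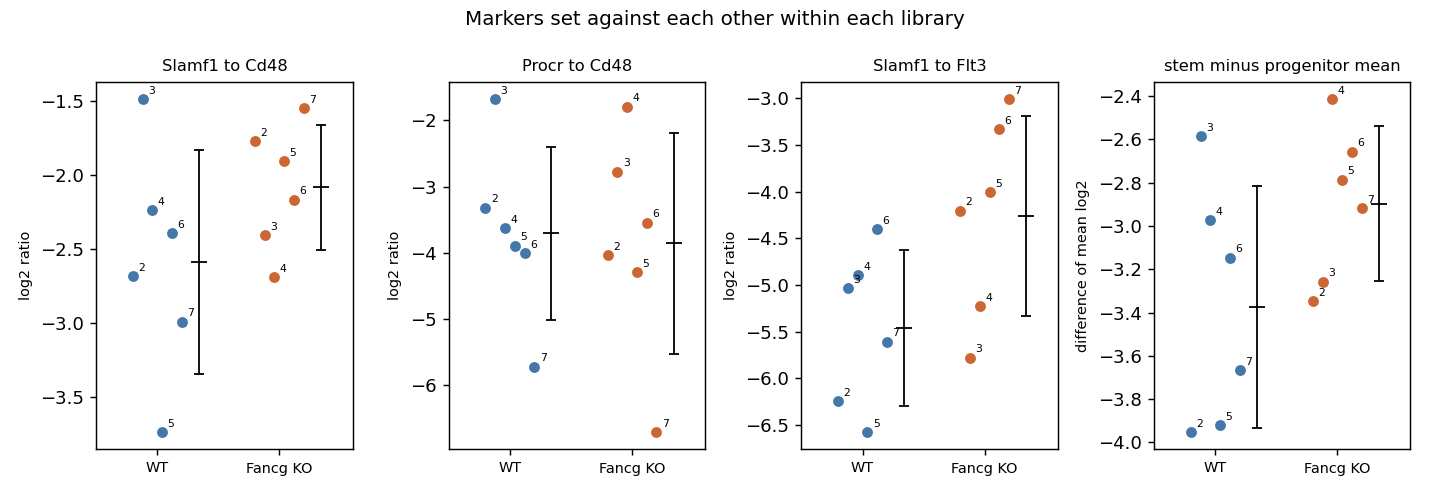
Markers set against each other in each library (points, with the replicate number), as log2 ratios of signal + 1 in the first 3 panels and as the mean log2 of Slamf1, Procr and Tek minus that of Cd48, Flt3 and Cd27 in the last. Bars are the mean and SD of 6 libraries, and each vertical axis has its own range. In the panel of Slamf1 to Flt3, 4 KO libraries lie above all WT libraries, and in the other panels at most 1 does. WT replicate 3 is the highest WT library in those other panels, so leaving it out cannot lower these counts. Without it, a setting added after the data were seen, the counts are 4 (Slamf1 to Cd48), 2 (Procr to Cd48) and 4 (last panel).

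The profile of a gene over the 12 libraries, centred on its own mean, was set beside those of all other genes tested, with the root-mean-square log2 difference as the measure of likeness. For Flt3 the nearest was Satb1 at 0.17, against 0.48 for the spread of Flt3 around its own mean, followed by Lsp1 and H2-Ob, both at 0.25. The signal of Satb1 was 431 ± 102 (SD, n = 6) in WT and 336 ± 114 (SD, n = 6) in KO, a log2 fold change of -0.39 (adjusted p = 0.9996). Lsp1 had a log2 fold change of -0.53 and H2-Ob of -0.50 (adjusted p = 0.9996 each). These values follow in part from the likeness itself. For Slamf1 the nearest gene was Pla2g12a at 0.38 against a spread of 0.70, for Tek it was Pkp4 at 0.35 against 0.66, and for Ly6a it was Tbc1d8 at 0.31 against 0.58. Kit was most like Ireb2 (0.12 against 0.19), Cd34 most like Appbp2 (0.09 against 0.12), Cd48 most like Tbc1d22b (0.18 against 0.38) and Cd27 most like Oxsr1 (0.17 against 0.33). The nearest gene was thus closest, relative to the member's own spread, for Flt3.

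The genes around these receptors were counted from fixed lists. Of 28 genes for the ligands of KIT, FLT3 and TEK and for proteins that carry or stop their signal, 24 were tested, 16 higher and 8 lower in KO, with a median log2 fold change of 0.11, where 50.7% of all genes tested were higher. Stat5b, a transcription factor activated by cytokine receptors, was the only gene of these 24 with an unadjusted p under 0.05, against the 3.67% of all genes. Its signal was 173 ± 31.03 (SD, n = 6) in WT and 219.9 ± 38.2 (SD, n = 6) in KO (log2 fold change 0.34, limma p = 0.0400, exact permutation p = 0.0433, adjusted p = 0.9996). The angiopoietin gene Angpt1 was high in both groups, at 442 ± 81.6 and 446 ± 53.1 (SD, n = 6 each), and Kitl, the gene of the KIT ligand, was at or under 1 in every library. Dok2, an adaptor that restrains kinase signals, was under the filter at 1.40 in WT and 2.54 in KO (exact permutation p = 0.0476).

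Other surface genes gave few differences. Of 12 further HSC-enriched surface genes, 8 were tested, 4 higher and 4 lower with 0 under an unadjusted limma p of 0.05, and the integrin gene Itga6 (156 in WT and 139 in KO) and Adgrg1 (226 and 224) were the most abundant. Of 12 surface genes of progenitors, 10 were tested, 7 higher and 3 lower (50.7% of all genes higher) with 0 under that p. Cd93 (561 and 525) led this list. In the SLAM family 3 of 10 genes were tested, with Cd84 at 54.6 and 48.3 and Cd244a at 47.6 and 50.2. In the Ly6 family 2 of 9 were tested, Ly6e and Ly6c2 (20.8 and 24.0), while Ly6h had an exact permutation p of 0.00649 at a signal of 0.475 in WT and 1.11 in KO, near the worth of 1 read. Of 11 partners of CD27, PROCR and CD34, 7 were tested with 0 under an unadjusted limma p of 0.05, led by Traf3 (85.2 and 116) and the thrombin receptor gene F2r (71.4 and 86.0).

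In the marker lists of other cell types 10 genes were tested and 2 had an unadjusted p under 0.05, against 3.67% of all genes. Itga2b, the integrin subunit CD41 of megakaryocytes that some HSCs also carry, had a signal of 14.8 ± 2.99 (SD, n = 6) in WT and 25.8 ± 9.70 (SD, n = 6) in KO (log2 fold change 0.72, limma p = 0.00597, exact permutation p = 0.00433, adjusted p = 0.9996). The 6 megakaryocyte genes together, Itga2b among them, summed to 23.2 to 71.2 in WT and to 36.3 to 98.5 in KO, with medians of 31.02 and 53.2. Apart from Itga2b these genes were under the filter. Their log2 fold changes ran from 0.27 (Gp5) to 1.04 (Pf4), with exact permutation p from 0.273 (Pf4) to 0.424 (Ppbp). These values stand beside the higher mean of Slamf1 in KO, and their part in it was not tested. Pdgfrb, a receptor gene of stromal cells, was 90.1 ± 14.2 (SD, n = 6) in WT and 69.3 ± 9.40 (SD, n = 6) in KO (log2 fold change -0.37, limma p = 0.0249, exact permutation p = 0.0238, adjusted p = 0.9996), while the other 4 genes of that list had means under 1.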

How the data were processed

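RNA-seq of LSK cells was analysed in 12 libraries. The authors deposited 1 table of signal. By its name and values it holds estimated counts per gene over a size factor. The labels name kallisto. The paper describes Kallisto and Sleuth with a human genome, and the mouse build and annotation were not given in the sources used here. Every column was matched to a library by its title, 0 columns were left unused, and in the most alike of 66 pairs of libraries 0.0675% of the tested genes had equal values (tolerance 1e-06). Members and lists were chosen with earlier results of these data known.

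Values were used as deposited. Genes whose signal averaged 10 or more (8887) were tested two-sided on log2(signal + 1) with limma 3.58.1 in R 4.3.3, using a mean-variance trend, no covariate and Benjamini-Hochberg adjustment over all of them, a procedure tested on simulated data. Sleuth needs inputs not used here, and count tests were not used because between 10.4% and 11.4% of the values above 0 of a library were whole multiples of its step (tolerance 0.001). Single genes also had two-sided exact permutation tests, whose smallest p for 6 against 6 is 0.0022. List genes were named for an unadjusted p under 0.05 (limma, or exact under the filter) or for 1 of the 2 highest means of their list, and other genes for their likeness to a member. Kitl and the genes at 0 were named after their values were seen. Positions, lengths and transcripts are from GENCODE M21 (GRCm38), promoters from RefSeq. Alternatives changed the pseudocount, the filter, the normalization or the trend, added the replicate number as a block, or left out libraries, and the counts of ratios without WT replicate 3 were added after the data were seen.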

Additional observations from a re-analysis of the deposited data

Results flagged for a closer look

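Of 26 groups of 6 libraries checked over the 9 members and 4 ratios, 2 held a library far from the other 5 by Dixon's criterion, and chance flags about 1 in 20 groups. Procr in KO replicate 4 had a signal of 21.9, while the other KO libraries held 0 to 6.39. Tek in KO replicate 7 had a signal of 58.1, while the rest of the KO libraries held 13.4 to 28.3. KO replicate 7 is the shallowest library, where this signal of Tek stands for about 36.2 reads. By the step of each library, WT replicates 4 and 7 and KO replicate 4 held the same number of Tek reads at a lower signal. KO replicate 7 is also 1 of the libraries low in Y-linked transcripts.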

How the results depend on the processing

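The count of members with an unadjusted p under 0.05 was 1, Flt3, and it was 0 with quantile normalization, without trend and without the pair WT replicate 3 and KO replicate 7 (low in Y-linked genes), and between 0 and 2 when 1 library was left out. Slamf1 joined Flt3 without WT replicate 6 and without KO replicate 3. Flt3 stayed between -0.51 and -0.47 over the other alternatives and between -0.63 and -0.32 when 1 library was left out. Without that pair the log2 fold change of Cd48 was -0.057 and that of Tek -0.22. With a pseudocount of 0.5 that of Procr was -0.044. When 1 library was left out, Kit ran from -0.015 to 0.11, Tek from -0.15 to 0.30 and Procr from -0.39 to 0.51, turning direction in 1, 2 and 5 of 12 fits. Over all genes, 836 had an unadjusted p under 0.05 without a filter, where more genes were tested, 91 with a mean signal of at least 50, where fewer were, and 275 to 383 when 1 library was left out, with 0 past adjustment in any fit. With lengths of the longest transcript, Cd34 had a level of 202 and Cd27 of 24.1 per kb. The cause of the other changes was not tested.

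Replicate numbers 2 to 7 occur in both genotypes. The deviations of same-numbered libraries correlated at 0.09 to 0.36 (mean 0.20, against -0.04 for other pairs), though not above 0.1 in every pair. Of 12 libraries, 9 correlated best with their own number, so same-numbered libraries were on average more alike than others. What the numbers mark was not given in the sources used here. The fit without a covariate was kept, and the fit with the number as a block is given beside it. With the replicate number as a block 476 genes had an unadjusted p under 0.05, the limma p of Flt3 was 0.0103 (adjusted p = 0.889), and 7 genes of the other lists had such a p in place of 3. Same-numbered differences of Flt3 were lower in KO in all but 2 of 6 pairs (exact sign-flip p = 0.125). At this depth, differences of Slamf1, Procr, Ly6a and Tek rest on few reads.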
